A study of Oryctolagus cuniculus with 12 samples.

Results

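The 7th and the 5th day after an experimental subarachnoid hemorrhage were compared in the basilar artery of the rabbit (Oryctolagus cuniculus), with 3 single-colour Agilent arrays for each day, 6 of the 12 arrays of the series. The members are the arrays whose source name gives day 5 or day 7, and their labelled condition is hemorrhage (SAH) with that day. The other 6 arrays, 3 controls labelled normal, which the series design counts as day 0, and 3 arrays of day 3 after hemorrhage, entered the shared estimate of the spread and are used here as reference levels. Strain, sex, age and the way the hemorrhage was made are not given in the sources used here. Nor do the labels say that the 3 samples of a day came from separate animals, so the p-values speak of the spread between these 3 samples a day, which may be technical. Each sample is whole artery, so fewer cells of a type and less RNA per cell cannot be told apart.

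A subarachnoid hemorrhage releases blood into the fluid-filled space around the arteries at the base of the brain. Breakdown of the clot exposes the vessel wall to hemoglobin, heme and iron, and the wall responds with acute-phase, heme-handling and inflammatory genes, with entry of leukocytes and with remodelling by smooth muscle cells and fibroblasts. In the days after the bleed the artery can stay narrowed, a state called vasospasm, in which endothelin, nitric oxide, prostanoids and the contractile apparatus of smooth muscle are known players.

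Gene levels on day 7 were close to those on day 5. Of 26172 probes well above background on all 3 arrays of day 5 or of day 7, 0 were called different (0% of the probes tested, limma with Benjamini-Hochberg adjustment, smallest adjusted p = 1, smallest unadjusted p = 0.000169). At an unadjusted p below 0.05 there were 411 probes (1.57%), 154 higher on day 7 (0.588%) and 257 lower (0.982%), and 129 genes (1.77%). With no difference in any probe, a threshold of 0.05 would on average pass a larger share than 1.57%. The count of 411 depends on how the spread is estimated, with 738 in a fit of the 6 arrays and 2710 with array weights. Of the 154 higher probes 127 were well above background on all 6 arrays, and of the 257 lower ones 163. The difference had the same sign on all 3 slides for 6506 probes (24.9%). Since a missed threshold does not show that levels were alike, likeness was tested directly, by asking of each probe whether its difference was smaller than 2-fold in both directions. That test passed for 23613 probes (90.2%), and for 6603 of the 7305 genes the tested probes name (90.4%). Levels are log2 signals with the 75th percentile of each array set to 0, and all differences below are day 7 minus day 5 on that log2 scale unless a control is named.

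**Figure D1:**
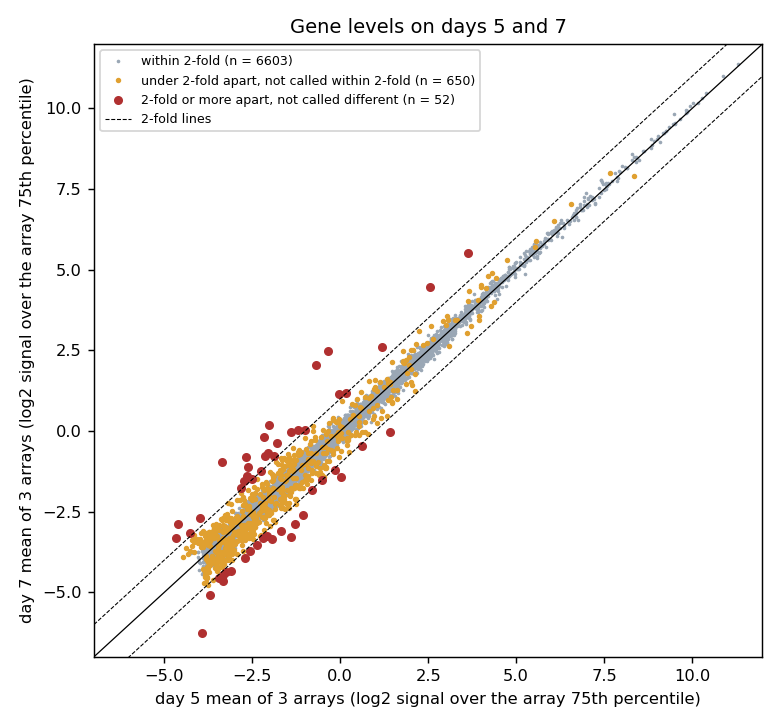
Mean log2 level of each of the 7305 genes on day 5 (x axis) and day 7 (y axis), 3 arrays each, where 0 is the 75th percentile of an array. The 6603 genes called within 2-fold (grey) lie along the diagonal, the 650 that differed by under 2-fold without that call (orange) sit mostly at low levels, and 52 genes (red) lay 2-fold or more apart, with 0 called different.

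The typical difference was small. The median absolute difference over the probes was 0.122, which is 1.09-fold, 90% of probes differed by less than 0.359 (1.28-fold) and 99% by less than 1.13 (2.19-fold). The 95% intervals had a median half-width of 0.474, or 1.39-fold, so a typical probe could hide a difference of about that size. The interval lay inside 2-fold for 22532 probes (86.1%) and inside 1.5-fold for 11827 (45.2%). The abundant genes kept their levels most closely. With the probes split by level into 4 groups of equal size, 78% were called within 2-fold in the dimmest group, then 91% and 95.3%, and 96.6% in the brightest.

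Single genes show the levels behind these shares. NBAS, BIRC2 and EEF1G were chosen among the genes with the narrowest intervals, so their steadiness is a description. NBAS, a factor of retrograde transport between Golgi and endoplasmic reticulum, had the levels 0.84, 0.85 and 0.80 on the 3 arrays of day 5 and 0.90, 0.81 and 0.71 on those of day 7, a difference of -0.03 (95% interval -0.29 to 0.24). BIRC2, an inhibitor of apoptosis, stood at 2.59, 2.55 and 2.71 against 2.63, 2.51 and 2.70, and EEF1G, a translation elongation factor, at 6.88, 6.85 and 6.94 against 6.78, 6.87 and 6.86. Among the brightest genes, ACTB, cytoplasmic actin, read 9.96, 9.94 and 9.93 on day 5 and 10.08, 10.37 and 9.83 on day 7. MGP, the matrix Gla protein that restrains calcification of vessels, read 9.76, 9.61 and 10.10 against 9.96, 9.76 and 10.10. RPLP1, a ribosomal stalk protein, read 9.76, 9.74 and 10.08 against 9.81, 9.90 and 10.02.

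By these measures no other pair of groups lay as close. Day 5 against day 3 had 2 probes called (0.00764%) and 85.3% called within 2-fold, day 7 against day 3 had 42 (0.16%) and 83.8%. Against the controls, 1700 probes (6.5%) were called on day 3, 533 (2.04%) on day 5 and 598 (2.28%) on day 7, with 75.9%, 80.2% and 77.4% called within 2-fold. The median absolute difference was 0.122 between days 5 and 7, 0.161 between days 3 and 5, 0.193 between days 3 and 7 and 0.203 to 0.244 between a day and the controls. These pairs share arrays and one estimate of the spread, so their counts are not independent of each other. The counts against the controls also rest on single arrays. The 1700 calls of day 3 were 769 without day 3 replicate 3, 950 without control replicate 1 and 1078 without day 3 replicate 2, the 533 of day 5 were 285 to 711 over the arrays left out, and the 598 of day 7 were 239 (without day 7 replicate 1) to 1678 (without control replicate 3). The 42 calls of day 7 against day 3 were 2 or 3 without 8 of the 12 arrays in turn.

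**Figure D2:**
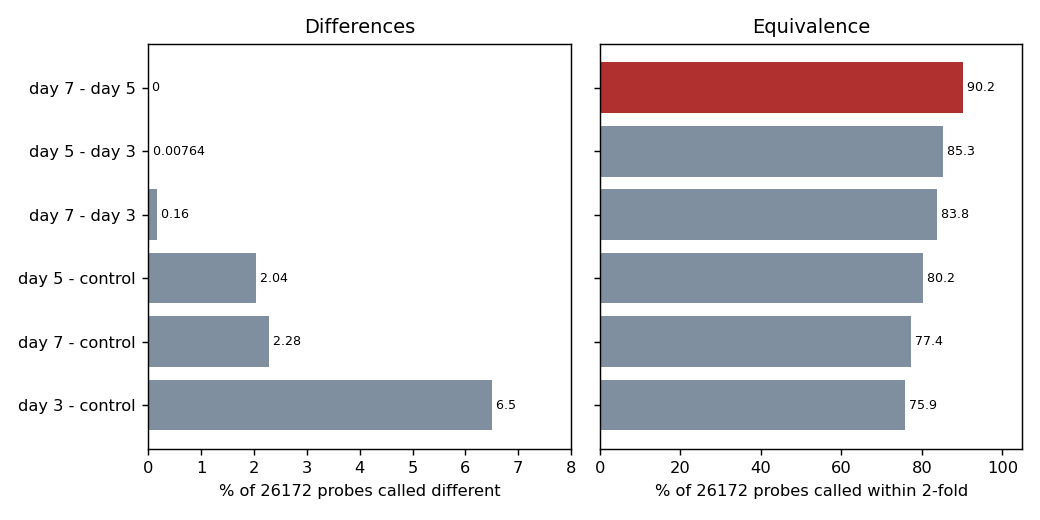
Share of the 26172 probes called different (left, limma adjusted p below 0.05) and called within 2-fold (right, equivalence test), in percent, for the 6 pairs of groups. Day 7 against day 5 has 0% called different and 90.2% called within 2-fold, the extremes of both panels.

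Arrays from different days were no further apart than arrays of the same day. The median absolute difference between arrays was 0.156 to 0.343 within day 5, 0.192 to 0.27 within day 7, 0.177 to 0.236 between days on the same slide and 0.166 to 0.296 between days on other slides. Pearson correlations over the probes, which are no replicates of each other, were 0.975 to 0.988 within day 5, 0.983 to 0.987 within day 7 and 0.976 to 0.988 between days. Day 5 replicate 3 stood apart most often. It was the array farthest from the mean of the 6 for 32.6% of all tested probes, against 8.1% to 21% for each other array, and for 158 of the 318 probes (49.7%) whose day means differed by 2-fold or more. The 75th percentile of the signal was 127 to 168 units over the 6 arrays, 59.6% to 64% of the spots were well above background and 0 spots were saturated. With 3 arrays a day, their number limits precision. A slide carried all 4 groups, always in the same order of positions, so position and day cannot be told apart.

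Genes that stood high or low on day 3 had similar median levels on days 5 and 7, and fewer of them were called within 2-fold than of all genes. Of the 7305 genes, 349 were called higher and 148 lower on day 3 than in the controls (6.8% of genes in all). That choice did not use the difference between days 5 and 7, but it used the same shared estimate of the spread. It was made among genes measured on day 5 or day 7. Left out were 62 genes measured only in another group, of which 14 were called higher and 2 lower on day 3. The choice did use the levels of day 3, so medians nearer to the controls on day 5 can come from it, and a change from day 3 was not tested. Of the 349, 297 (85.1%) were called within 2-fold between day 5 and day 7, against 90.4% of all genes, and 0 were called different. Their median level above the controls was 1.24 on day 3, 0.85 on day 5 and 0.84 on day 7, and the median of their day 7 minus day 5 differences was -0.04, with 0.07, 0.00 and -0.17 on the 3 slides. In 39 of the 349 the probe was not well above background on any control array, and setting these 39 to their bounds gave medians of 1.13, 0.74 and 0.74. Of the 148 lower genes, 119 (80.4%) were called within 2-fold, with medians against the controls of -1.13, -0.61 and -0.60 on days 3, 5 and 7. Among the genes that were 2-fold or more from the controls on day 3, 181 of 233 higher (77.7%) and 61 of 90 lower genes (67.8%) were called within 2-fold between day 5 and day 7. Against the controls, 160 of all genes (2.19%) were called on day 5 and 189 (2.59%) on day 7, among them 119 and 116 of the 349 and 9 and 22 of the 148. How many genes were chosen depends on single arrays. Without day 3 replicate 3 it was 182 higher and 49 lower genes, of which 151 and 42 were called within 2-fold between day 5 and day 7, without control replicate 1 it was 230 and 68, without control replicate 2 it was 221 and 124 and without day 3 replicate 2 it was 233 and 66.

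**Figure D3:**
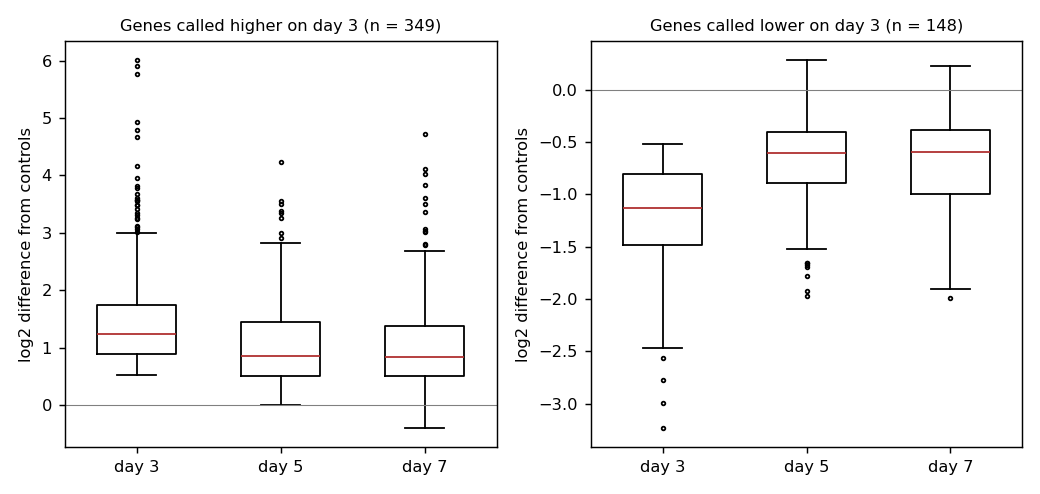
Log2 difference from the controls on days 3, 5 and 7 for the 349 genes called higher (left) and the 148 called lower (right) on day 3. Boxes span the quartiles with the median in red, whiskers reach to 1.5 times that range and circles are single genes. The medians come closer to 0 from day 3 to day 5 and stay level to day 7 (0.85 and 0.84 on the left, -0.61 and -0.60 on the right). The genes were chosen by day 3, so the step from day 3 to day 5 is no evidence of a change.

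The acute-phase genes stood furthest above the controls on day 3, and their arrays spread widely. HP, haptoglobin, which binds free hemoglobin, read 4.88, 3.21 and 3.64 on day 5 and 3.96, 3.52 and 4.70 on day 7, and SAA3, a serum amyloid A, read 6.58, 6.0 and 7.11 against 7.68, 6.85 and 6.57. The arrays of the days overlap in both genes. HP differed by 0.15 (95% interval -1.06 to 1.35) and SAA3 by 0.47 (-0.66 to 1.61), so 2-fold differences in either gene lie inside the intervals and neither was called within 2-fold. Against the controls HP was higher by 5.76, 3.35 and 3.50 on days 3, 5 and 7 (limma adjusted p = 0.00015, 0.0091 and 0.0077) and SAA3 by 5.90, 3.55 and 4.02 (adjusted p = 0.00011, 0.0047 and 0.0026). Of the 7 acute-phase genes measured, 0 were called different and 3 (42.9%, against 90.4% of all genes) were called within 2-fold. These 3 were CP, the ferroxidase ceruloplasmin, at -0.03, CRP, C-reactive protein, at 0.18, and FGB, a fibrinogen chain, at -0.12.

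Of the 12 heme and iron genes measured, 11 (91.7%) were called within 2-fold, near the 90.4% of all genes, and 0 different, with a list median of 0.03 against 0.003 over all genes. FTL, the ferritin light chain that stores iron, read 8.90, 8.60 and 9.01 on day 5 and 9.05, 9.03 and 9.05 on day 7, all 3 arrays of day 7 a little above those of day 5. FTL differed by 0.20 (95% interval -0.29 to 0.69) and stood 1.18 and 1.39 above the controls on days 5 and 7. A probe that the array describes as heme oxygenase 1, the enzyme that breaks heme down, carries no symbol that could be matched and was looked up after the other values were seen. It read -0.13, -0.25 and 0.62 on day 5 and 0.26, 0.31 and 0.41 on day 7, differed by 0.25 (95% interval -0.56 to 1.05, equivalence adjusted p = 0.036) and stood 3.71, 2.56 and 2.80 above the controls on days 3, 5 and 7. All 14 genes of glutathione and oxidative stress were called within 2-fold, 12 of them with a positive difference and a median of 0.11. FECH, the ferrochelatase that puts iron into heme, was not well above background on any array of day 7 and is given as a bound, at least 1.19-fold lower than on day 5.

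The macrophage, complement and interferon lists were called within 2-fold about as often as all genes (90.4%), at 90%, 83.3% and 90.9%. The median of the macrophage list was 0.002, with 5 of 10 differences positive, and 9 were called within 2-fold, with the exception of LAPTM5, a lysosomal membrane protein of leukocytes. CD68, a lysosomal protein of macrophages, read 0.89, 0.48 and 1.06 on day 5 and 1.12, 0.74 and 0.91 on day 7, a difference of 0.11 (95% interval -0.30 to 0.53), and stood 1.88 and 2.0 above the controls. CD14, a receptor for lipopolysaccharide, read 4.01, 3.76 and 4.22 against 3.91, 3.63 and 3.65, a difference of -0.26. The arrays of both days overlap for CD68 and CD14. Of 12 complement genes 10 were called within 2-fold. C1R, which cleaves C1S when complement is triggered and which the array describes as similar to MASP1, read 5.56, 5.51 and 5.69 on day 5 and 5.46, 5.23 and 5.40 on day 7. Every day 7 array of C1R lay below every day 5 array, by a mean of 0.22 (95% interval of the difference -0.57 to 0.13, equivalence adjusted p = 0.00072), at 1.86 and 1.64 above the controls. Of 11 interferon response genes 10 were called within 2-fold, among them IFIH1, a sensor of double-stranded RNA, at 0.02. All 16 lysosomal genes were called within 2-fold.

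The cell cycle list had a small negative median and the DNA replication list a small positive one. Of 24 cell cycle genes 20 (83.3%, against 90.4% of all genes) were called within 2-fold, with a median of -0.11 and 5 positive differences. That median was 0.19, -0.15 and -0.44 on the 3 slides and between -0.24 and 0.001 over the alternative settings. Of 19 DNA replication genes 18 were called within 2-fold, with a median of 0.05 and 13 positive differences. Day 5 replicate 3 was the highest array of both lists. NCAPG, a condensin subunit that packs chromosomes, read -3.03, -2.82 and -2.16 on day 5 and -2.71, -2.54 and -2.69 on day 7. NCAPG differed by 0.02 (95% interval -0.66 to 0.70). No control array was well above background for NCAPG, so its levels are bounds: at least 3.59-fold higher on day 3, then at least 1.85-fold and 1.88-fold on days 5 and 7. CDK1, the kinase of mitotic entry, read -1.06, -0.76 and 0.09 against -0.65, -1.06 and -0.54, a difference of -0.17, at 2.83 and 2.65 above the controls. BUB1B, a kinase of the spindle checkpoint, differed by -0.33 (95% interval -0.90 to 0.25). The arrays of both days overlap in NCAPG and CDK1.

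Of 26 contractile smooth muscle genes 23 (88.5%, against 90.4% of all genes) were called within 2-fold, with a median of -0.07. ACTA2, smooth muscle actin, read 6.58, 7.12 and 7.54 on day 5 and 6.84, 7.28 and 6.87 on day 7, a difference of -0.08 (95% interval -0.64 to 0.47). MYH11, smooth muscle myosin, read 6.36, 6.41 and 5.70 against 6.30, 6.25 and 5.59, a difference of -0.11. Both genes overlap between the days, and neither was called different from the controls on day 3, 5 or 7. The exceptions of the list were ITGA8, an integrin of smooth muscle, at -0.70, PDLIM3, a protein of the Z line, at 0.60 and CASQ2, a calcium-binding protein of the sarcoplasmic reticulum, at 0.29. All 24 ion channel and calcium handling genes, 15 of 16 calcium sensitization genes and 31 of 32 extracellular matrix genes were called within 2-fold. COL1A2, a chain of fibrillar collagen, read 8.72, 8.48 and 8.64 on day 5 and 8.63, 8.76 and 8.65 on day 7, a difference of 0.07 (95% interval -0.21 to 0.35), and was higher than in the controls by 1.02, 1.34 and 1.40 on days 3, 5 and 7 (limma adjusted p = 0.00094, 0.00092 and 0.00053). TIMP1, an inhibitor of metalloproteinases, read 5.84, 5.19 and 5.49 against 5.79, 5.24 and 5.19, a difference of -0.11, after 3.49 above the controls on day 3 and 1.59 and 1.48 on days 5 and 7.

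Of 30 genes tied to vasospasm, 22 were tested and 17 (77.3%, against 90.4% of all genes) were called within 2-fold, with 0 called different and a median of -0.08. EDN1, endothelin 1, a strong constrictor, read -0.15, -0.13 and 0.70 on day 5 and -0.13, -0.10 and 0.56 on day 7, nearly equal on each slide, with a difference of -0.03 (95% interval -0.57 to 0.51). Its receptors EDNRA and EDNRB differed by 0.05 and 0.08. NOS3 and NOS2, which make nitric oxide in endothelium and under inflammation, differed by -0.36 and 0.15. PTGS2, cyclooxygenase 2, differed by 0.12, HTR2A, a serotonin receptor, by -0.03, CACNA1C, the pore of the L-type calcium channel, by -0.09 and KCNMA1, the large-conductance potassium channel, by -0.14. These 9 genes were all called within 2-fold.

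The 5 vasospasm genes not called within 2-fold were HP, SPP1, MMP9, HTR1B and CCL2. MMP9, a gelatinase of neutrophils and macrophages, read -0.88, -1.15 and -0.82 on day 5 and -1.31, -1.33 and -2.32 on day 7. All 3 arrays of day 7 lay below those of day 5, and the difference of -0.70 (95% interval -1.43 to 0.02) came with a limma adjusted p of 1. MMP9 was called lower than in the controls on both days, by 1.71 on day 5 (adjusted p = 0.023) and by 2.41 on day 7 (adjusted p = 0.0039), which is -1.71 and -2.41 in the direction used here. CCL2, which attracts monocytes, differed by -0.33 (95% interval -1.32 to 0.66), SPP1, osteopontin, by 0.38 (-1.21 to 1.97) and HTR1B, a serotonin receptor of arteries, by -0.85 (-2.02 to 0.33). TBXA2R and IL6 were not well above background on all arrays of either day. F2R, AGTR1, HMOX1, VEGFA, ICAM1 and TGFB1 had no probe with a matched symbol, and a probe described as transforming growth factor beta-1 differed by -0.10 (95% interval -0.53 to 0.33).

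The largest differences often came with 1 array that stood apart or with dim probes. Day means were 2-fold or more apart for 318 probes, 96 higher and 222 lower on day 7, and for 52 genes, 28 higher and 24 lower. The filter admitted 1093 probes through the arrays of day 5 only and 377 through those of day 7 only, so counts by direction depend in part on it. On all 6 arrays 69 of the 96 higher and 103 of the 222 lower probes were well above background. The arrays of the days did not overlap for 1921 probes (7.34%), 882 higher (3.37%) and 1039 lower (3.97%), and for 599 genes (8.2%). The 222 lower probes had a median level of -2.53 and the 96 higher ones of -1.35, against -0.53 over all probes tested. Every gene described from here on is given as a value, since none was called.

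Among the higher genes were defensins of granulocytes. LOC100009136, corticostatin-6, an antimicrobial peptide of the defensin family, read 0.15, -1.01 and -0.19 on day 5 and 4.65, 1.05 and 1.71 on day 7. All 3 arrays of day 7 lay above those of day 5, most of all replicate 1. The difference was 2.82 (95% interval 1.0 to 4.64, limma adjusted p = 1), and without day 7 replicate 1 it was 1.73. LOC100009135, defensin NP-4, read -0.15, -1.33 and -0.60 against 4.25, 0.65 and 1.27, the same pattern over the arrays. LOC100009134, defensin NP-3a, read -2.28, -2.40 and -1.84 against 1.61, -1.40 and -0.74, a difference of 1.99 (95% interval 0.70 to 3.29) and of 1.1 without day 7 replicate 1. The probes are shown because they bear on how many genes this is: below are bases 1 to 30 of the 60 bases of each probe, 5′ to 3′ as the scanner files give them, with capitals at the positions where the first and the second differ.
corticostatin-6: TAtacCctttgcctcatcttttcctttccc
defensin NP-4: ATtacTctttgcctcatcttttcctttccc
defensin NP-3a: aactgtttccactcctctgctatgtccttt
The probes of corticostatin-6 and defensin NP-4 were the same at 56 of 60 bases, so the signals of this pair cannot be told apart and count as 1 observation. The probe of defensin NP-3a matched theirs at 14 and 16 of 60 bases. The 5 tested probes of LOC100009134 overlap each other in sequence and are not separate evidence either.

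Other granulocyte genes had a similar array. BPI, a bactericidal protein of neutrophil granules, read -1.74, -2.11 and -2.31 on day 5 and 0.56, -1.60 and -0.99 on day 7, without overlap. These are values of its brightest probe. The 6 tested probes of BPI differed by 0.29 to 1.56, and 1 of them was called within 2-fold. S100A8, a calgranulin of neutrophils and monocytes, read -2.18, -0.67 and -0.75 against 2.31, -2.11 and -0.15, with overlap. In S100A8 replicate 1 of day 7 was the highest of the 6 arrays and replicate 2 close to the lowest, and the difference of 1.22 (95% interval -1.09 to 3.52) was 0.07 without day 7 replicate 1. LOC100009166, described as a leukocyte protein, read -0.12, -0.42 and 0.44 against 3.05, -0.08 and 0.47. Of 9 neutrophil list genes 5 (55.6%, against 90.4% of all genes) were called within 2-fold. Among these were the chemokine receptors CXCR1 and CXCR2 at 0.11 and 0.18 and the collagenase MMP8 at -0.02. The other 4 were S100A8, S100A9, MPO and MMP9. The summed linear level of the list was 4.19 to 5.21 on the arrays of day 5 and 5.11 to 11.2 on those of day 7. The part of granulocyte number in the defensin values was not tested.

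**Figure D4:**
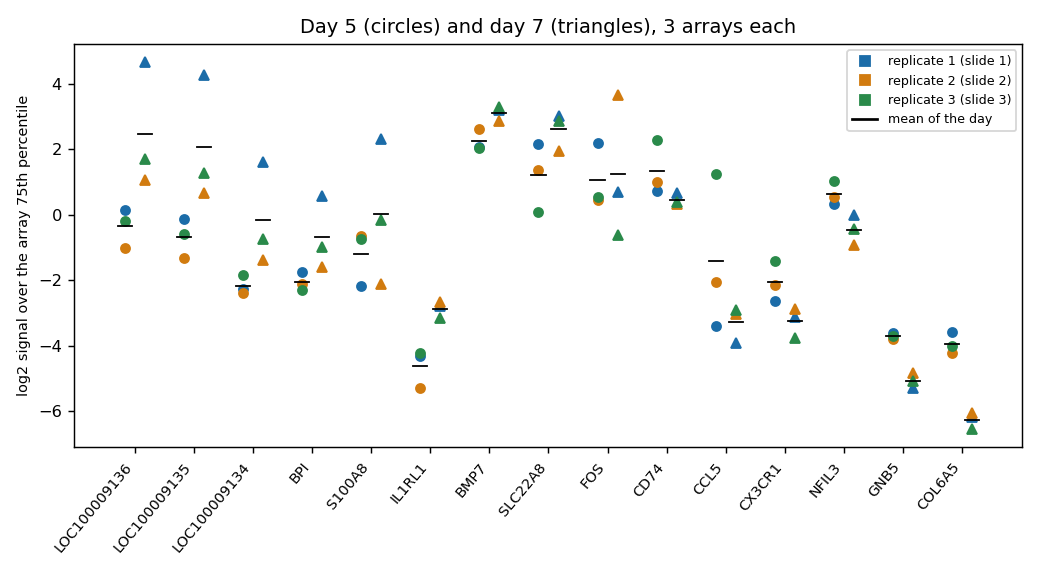
Log2 level, with 0 at the 75th percentile of each array, for 15 genes on the 3 arrays of day 5 (circles) and of day 7 (triangles), coloured by replicate, with the mean of each day as a bar. The defensins LOC100009136, LOC100009135 and LOC100009134 lie above day 5 on all 3 arrays of day 7, most of all in replicate 1, while CD74 and CCL5 are highest on replicate 3 of day 5 and FOS on replicate 2 of day 7.

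Genes of other functions also lay higher on all 3 arrays of day 7, which the rule for naming genes by smallest p asks for. BMP7, a bone morphogenetic protein made in the meninges and choroid plexus, read 2.06, 2.60 and 2.04 on day 5 and 3.19, 2.86 and 3.30 on day 7. The difference was 0.88 (95% interval 0.36 to 1.41, limma adjusted p = 1), between 0.65 and 1.06 over all alternative settings, and its 5 probes overlap in sequence. BMP7 stood 0.15 above the controls on day 5 and 1.03 on day 7 (adjusted p = 0.051). IL1RL1, the receptor of interleukin 33, read -4.32, -5.29 and -4.22 against -2.79, -2.68 and -3.17 and was well above background on no array of day 5 and on all 3 of day 7. As a bound on its mean levels, IL1RL1 was at least 2.46-fold higher on day 7 (limma adjusted p = 1). The 95% interval of its measured difference, 0.66 to 2.80, reaches below that bound. TENM1, a teneurin of cell contacts, read -2.38, -2.35 and -2.77 against -2.14, -0.91 and -1.42, a difference of 1.01 (95% interval 0.41 to 1.61). PHGDH, the first enzyme of serine synthesis, and RGCC, a regulator of the cell cycle that complement induces, both differed by 0.80. ORM1, the acid glycoprotein of the acute phase, differed by 0.73, and LOC100349167, described as similar to the transcription factor Spi-C, by 0.82. After another background correction, normexp, IL1RL1 differed by 0.00 and ORM1 by -0.12.

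Among the lower genes with the smallest p, COL6A5 and GNB5 were not well above background on any array of day 7. COL6A5, a chain of collagen VI that the array describes as collagen XXIX, read -3.59, -4.21 and -4.02 on day 5 and -6.18, -6.07 and -6.55 on day 7, when no array was well above background. This was the smallest p of all (limma adjusted p = 1), and the measured difference of -2.33 (95% interval -3.26 to -1.39) is known only as a bound of at least 1.05-fold and was -0.47 after normexp background correction. COL6A5 was not well above background on any control array either. GNB5, a G protein beta subunit, read -3.61, -3.79 and -3.70 against -5.29, -4.84 and -5.09, at least 1.24-fold lower. GLOD4, a glyoxalase domain protein well above background on all 6 arrays, read -0.69, -0.78 and -0.09 against -1.35, -1.31 and -1.45, a difference of -0.85 (95% interval -1.31 to -0.39).

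The lower genes named by the smallest p also held genes known from blood cells, listed here with CX3CR1, which was added after its value was seen. They are single values and no theme was tested. CD247, the zeta chain of the T cell receptor, read -3.32, -3.69 and -2.98 on day 5 and -4.01, -5.09 and -4.86 on day 7, by its means at least 1.59-fold lower with no day 7 array well above background. The measured difference of CD247 had a 95% interval of -2.15 to -0.50. HCLS1, an actin regulator of blood cells, differed by -1.12 (95% interval -1.79 to -0.45) and TAGAP, a GTPase activator of activated T cells, by -0.98 (-1.53 to -0.43). HCLS1 was dim, well above background on 1 array of day 7 and on no control array. Its difference was between -1.40 and -0.45 over the alternative settings. CX3CR1, the fractalkine receptor of monocytes, microglia and T cells, read -2.65, -2.16 and -1.41 against -3.13, -2.88 and -3.76, a difference of -1.18 (95% interval -1.95 to -0.42). All 3 arrays of day 7 lay below those of day 5 in these 4 genes. This was a condition for naming CD247, HCLS1 and TAGAP and was known when CX3CR1 was added. Of the 5 lymphocyte list genes measured, all had a negative difference and 4 were called within 2-fold. Their summed linear level was 2.21 to 3.32 on day 5 and 1.90 to 2.37 on day 7. The list median was -0.19 (-0.17, -0.12 and -0.44 on the slides), between -0.32 and -0.005 over the alternative settings. Relative to each gene's mean over both days, the list median was -0.16, 0.05 and 0.30 on the arrays of day 5. On those of day 7 it was -0.27, 0.07 and -0.04, so that replicate 3 of day 5 was the highest array. CD247, HCLS1 and CX3CR1 were also highest on that array. Whether lymphocyte number had a part in these values was not tested. LOC100346285, a granzyme A-like protease, read 1.28, 1.57 and 2.02 against 1.93, 1.66 and 1.68, a difference of 0.13 (95% interval -0.55 to 0.81) that was called within 2-fold.

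Antigen presentation was the list with the most negative median, and day 5 replicate 3 stood apart in it. Of 12 genes measured 5 (41.7%, against 90.4% of all genes) were called within 2-fold and 0 different. The median was -0.46, with 0.33, -0.53 and -1.44 on the 3 slides. Relative to the mean of the 6 arrays, the list median was -0.41, 0.09 and 1.16 on the arrays of day 5 and -0.16, -0.21 and -0.19 on those of day 7, so that replicate 3 of day 5 was the high array. Without day 5 replicate 3 the median of the list was -0.01. CD74, the invariant chain of class II molecules, read 0.71, 1.0 and 2.27 on day 5 and 0.67, 0.33 and 0.38 on day 7, a difference of -0.87 (95% interval -2.0 to 0.26) that was -0.40 without day 5 replicate 3. TAP1, the peptide transporter of class I molecules, read -2.32, -1.16 and -0.38 against -2.22, -1.71 and -2.36, and PSMB8, an immunoproteasome subunit, read -1.54, -0.36 and 0.57 against -1.22, -1.0 and -1.22. CCL5, a T cell chemokine, read -3.40, -2.06 and 1.24 against -3.92, -3.03 and -2.90, and its difference of -1.88 was -0.56 without day 5 replicate 3. The same array was the highest in the brightest probe of VANGL1, a planar polarity protein (-1.28, -1.27 and 2.64 against -1.54, -1.22 and -1.49). The 5 tested probes of VANGL1 differed by -1.44 to 0.18, and 4 of them were called within 2-fold.

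Of the lists with more than 1 gene measured, immediate early genes spread most between the arrays of 1 day. Their median standard deviation within a day was 0.83, against 0.23 over all genes. Of the 13 genes, 5 (38.5%, against 90.4% of all genes) were called within 2-fold. FOS, a transcription factor that a stimulus switches on within minutes, read 2.17, 0.45 and 0.55 on day 5 and 0.68, 3.66 and -0.63 on day 7, and EGR1, another such factor, read 3.01, 0.85 and 0.19 against 1.37, 3.51 and -0.42. In both genes replicate 2 of day 7 was the highest and replicate 3 of day 7 the lowest of the 6 arrays, and the day means differed by 0.18 and 0.14. NR1D1, a nuclear receptor of the circadian clock, read -1.14, -3.20 and -1.03 against -1.16, 0.92 and -0.88, with replicate 2 lowest on day 5 and highest on day 7. LOC100354037, an HSPA1A heat shock gene, read 4.01, 3.40 and 3.46 against 6.66, 7.15 and 2.77, a difference of 1.91 (95% interval -0.33 to 4.14) with 2 of the 3 day 7 arrays high. NFIL3, a transcription factor of immune cells and the clock, read 0.32, 0.53 and 1.03 against -0.01, -0.93 and -0.44, lower on all 3 arrays of day 7 (difference -1.09, 95% interval -1.82 to -0.36).

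**Figure D5:**
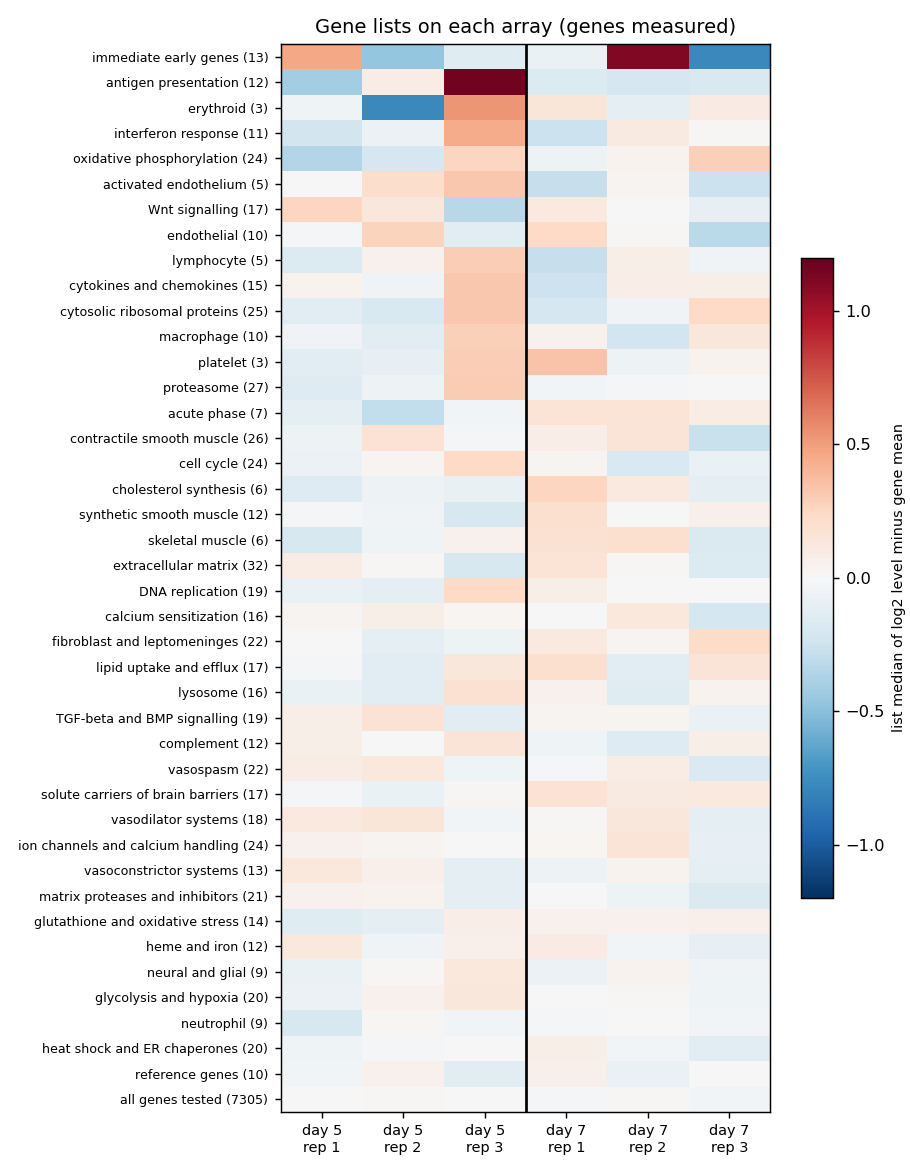
Median over each gene list, on each of the 6 arrays, of the log2 level minus the mean of that gene over the 6 arrays, with the number of genes measured in brackets and lists ordered by their range over the arrays (lists with at least 3 genes measured). Most lists stay pale on all arrays. The darkest cells are antigen presentation on day 5 replicate 3 (1.16), immediate early genes on day 7 replicates 2 (1.11) and 3 (-0.77) and erythroid genes on day 5 replicate 2 (-0.77).

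Of 17 solute carriers of brain barriers measured, transporters that the meninges and other barriers carry, 0 were called different and 11 (64.7%, against 90.4% of all genes) were called within 2-fold. In 12 of the 17 the difference was positive, against 3706 of all 7305 genes. SLCO2B1 was the lowest at -0.57, and the median was 0.27 (0.30, 0.19 and 0.07 on the slides), between 0.12 and 0.28 over all alternative settings. SLC22A8, an organic anion transporter, read 2.16, 1.36 and 0.09 on day 5 and 3.01, 1.94 and 2.86 on day 7, with overlap. Its difference of 1.41 (95% interval -0.02 to 2.84, limma adjusted p = 1) was 0.85 without day 5 replicate 3. Against the controls SLC22A8 stood at -3.24 on day 3 (adjusted p = 0.014), -1.98 on day 5 (adjusted p = 0.17) and -0.57 on day 7 (adjusted p = 0.69). SLC22A6, a related transporter, read 0.95, 1.25 and 0.75 against 1.55, 1.44 and 1.76, higher on all 3 arrays of day 7 by a mean of 0.60 (95% interval -0.32 to 1.52), at -2.56, -0.78 and -0.18 against the controls on days 3, 5 and 7. PTGDS, the prostaglandin D2 synthase abundant in the leptomeninges, read 9.49, 9.51 and 9.43 against 9.61, 9.84 and 10, higher on all 3 arrays by a mean of 0.35 and called within 2-fold. Of 22 fibroblast and leptomeninges genes, which share 5 genes with the carrier list, 17 were called within 2-fold and the median was 0.19 (0.12, 0.19 and 0.40 on the slides). Their summed linear level was 1898 to 1981 on day 5 and 2128 to 2507 on day 7, and the part of the amount of attached membrane in these values was not tested.

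The housekeeping lists were near or above the 90.4% of all genes called within 2-fold. Bright probes passed more often in general, with 96.6% in the brightest of the 4 groups by level. All 25 cytosolic ribosomal protein genes and all 10 reference genes were called within 2-fold, with medians of 0.04 and 0.08, as were 25 of 27 proteasome, 19 of 20 glycolysis and hypoxia and 18 of 20 chaperone genes. Of 24 respiratory chain genes 22 were called within 2-fold and 22 had a positive difference, with a median of 0.16 (0.28, 0.27 and -0.02 on the slides). COX7A1, a cytochrome oxidase subunit of muscle, had the highest difference of that list, 0.54 (95% interval -0.09 to 1.18). All 10 endothelial genes were called within 2-fold with a median of -0.22, among them PECAM1, an adhesion protein of endothelial contacts, at -0.26 and CLDN5, the tight junction protein of brain endothelium, at -0.42, the latter lower on all 3 arrays of day 7. The globins, markers of red blood cells, were high on every array of both days, as HBA read 6.26, 5.53 and 6.47 on day 5 and 6.81, 6.58 and 6.16 on day 7, and of 3 erythroid genes 0 were called different and 0 within 2-fold.

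Of the growth factor pathways, 0 genes were called different. Of 19 TGF-beta and BMP signalling genes 17 (89.5%) were called within 2-fold, against 90.4% of all genes, with BMP7 above and NOG, a BMP antagonist, at -0.68 (95% interval -1.41 to 0.05). Of 17 Wnt genes 13 (76.5%) were called within 2-fold, with SFRP2, a secreted Wnt modulator, at 0.90 (-0.45 to 2.25) the highest. Of 13 genes of vasoconstrictor systems 7 (53.8%) were called within 2-fold, and ADRA2A, an adrenergic receptor, read -0.26, -0.85 and -1.33 on day 5 and -2.41, -1.31 and -1.73 on day 7. The days just overlap in ADRA2A, whose difference was -1.01 (95% interval -1.88 to -0.14, limma adjusted p = 1) after 1.82 above the controls on day 5 (adjusted p = 0.04) and 0.82 on day 7 (adjusted p = 0.31). Of 18 vasodilator genes 14 were called within 2-fold. Over all 42 lists, 0 members were called different.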

How the data were processed

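Total RNA was extracted with TRIzol, amplified and labelled with Cy3 for 1-colour arrays, per the labels' protocols. The authors deposited 12 scanner files, from version 9.5.1.1 of Agilent Feature Extraction per the submitters' processing notes. The processed signal and the raw mean and background signals are an intensity per the file headers, the processed one background-subtracted and not scaled between arrays. The flags (well above background, outlier, saturated) are of the kind other and read 0 or 1 for each spot, per the file headers. The authors' deposited value table holds an intensity with equal column medians of 27.0, whose log2 values followed the scanner signals with r of at least 0.994, and served as an alternative only.

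Outlier and control spots were left out, log2 processed signals were scaled to the 75th percentile of each array and the spots of a probe averaged. All 4 groups were fitted together with limma 3.58.1 (R 4.3.3, and data.table in version 1.17.8), two-sided, with adjusted p below 0.05 as the threshold. Equivalence used 2 one-sided moderated tests against a margin of 2-fold, adjusted in the same way. All p-values come from limma. The scripts were tested on simulated data. Of 43623 non-control probes, 23115 were named with 1 gene, 140 with several and 20368 with none, through accessions, gene identifiers and symbols and the RefSeq gene table of assembly mOryCun1.1. No coordinates are given, since the array names no build. A gene is represented by its brightest tested probe. In 3389 genes more than 1 probe was tested, and of these 2863 had all and 147 none called within 2-fold. Where no array of a day or of the controls was well above background, a fold is a bound: the brighter mean over the mean, per array, of the higher of the probe's own signal and the lowest signal well above background. A bound takes no account of the spread between arrays.

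The members, lists and rules were chosen with earlier results of these data known. Genes are named by 5 rules: up to 10 per direction whose arrays do not overlap, by smallest p, up to 3 members of each list, the 10 highest and 10 lowest genes on day 3 whose arrays do not overlap, 30 vasospasm genes, and the 10 brightest and 10 steadiest genes. Several of the brightest probes carry names that are doubtful for their level and are not described. CD68, CDK1, CRP, CP, FGB, PDLIM3, CASQ2, PECAM1, CXCR2, MMP8, LOC100009135, BPI, LOC100009166, CX3CR1, VANGL1, FOS, EGR1, NR1D1, NFIL3, LOC100354037, SLCO2B1 and NOG, and the described probes, were added after their values were seen. Alternatives changed the filter, scaling, background correction, arrays, block, weights, prior, margin and probe choice.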

Additional observations from a re-analysis of the deposited data

How the results depend on the processing

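No probe and no gene was called different between day 7 and day 5 in the main setting, in any of the alternatives run or without any 1 of the 12 arrays (limma), and the lowest adjusted p in any of them was 0.0932, with no filter on dim probes. The count of 23613 probes called within 2-fold was 10625 (40.6%) with a margin of 1.5-fold, and 22079 to 24043 without each array. Inside 2-fold lay 20586 to 23121 intervals, and 6177 to 6716 genes were called within 2-fold, without each array, as were 417 to 476 list members (469 in the main setting, 470 with the replicate block). After normexp background correction 24 probes were 2-fold or more higher and 30 lower, against 96 and 222, and without day 5 replicate 3 the lower ones were 115.

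Each replicate number is 1 slide, per the barcodes. Deviations of same-numbered arrays of days 5 and 7 correlated at 0.219, -0.0192 and 0.149, and those of arrays with other numbers at -0.21 to 0.0697. Whether the numbers pair the samples was not tested. With the replicate block 0 probes were called and 23824 (91.0%) were within 2-fold, with 653 at an unadjusted p below 0.05 (295 higher, 358 lower) against 411. That count of 411 depends on how the spread is estimated. It was 2710 with array weights, 1194 after normexp, 738 in a fit of the 6 arrays of days 5 and 7 and 307 with the filter on all 6 arrays (limma). The block gave 3 calls for day 7 against day 3 and 964 for day 7 against the controls.

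Calls over the other 5 pairs of groups together were 2875, then 1631 with no filter, 1618 after normexp, 6212 with array weights and 1650 to 4256 without each array. The median difference between arrays, 0.253, was 0.181 after normexp and 0.237 to 0.265 without each array. The median day 7 minus day 5 difference of the genes lower on day 3, -0.014, was 0.027 with no filter, -0.066 with array weights, -0.065 for changes of at least 2-fold and -0.094 to 0.031 without each array; that of the genes higher on day 3, -0.044, was -0.091 to 0.021. The cause of these moves was not tested. Of 3905 values of named genes under an alternative, 114 moved by more than the standard deviation of that gene's own differences on the 3 slides. Genes whose slides differ widely can hardly pass that mark, so the count is no measure of robustness. S100A8 ranged from 0.07 to 2.28 over the alternatives with 0 values counted as moved. Of the dimmest of 4 groups of probes by level 78% were called within 2-fold, against 96.6% of the brightest.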
